A study of Mus musculus with 8 samples.

Results

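The 9 genes described here encode inhibitors of cyclin-dependent kinases and the retinoblastoma (Rb) family proteins on which these kinases act. They were chosen by name: Cdkn1a and Cdkn1b of the Cip/Kip family, Cdkn2a, Cdkn2b, Cdkn2c and Cdkn2d of the INK4 family, and Rb1, Rbl1 and Rbl2 of the Rb family. All 9 were among the 55401 genes of the count table, and all 9 passed the filter on low counts that left 15461 genes for the fit. The choice was made with the genotype difference of Cdkn1a already known, so the genotype values of the 9 genes are a description and carry no test.

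RNA was sequenced from 8 lines of mouse embryonic fibroblasts (MEFs) of strain B6C3F1, made from the bodies of E14.5 embryos without head and organs. In 4 lines the gene was intact (WT), and 4 lines were SLMAP3-/-, from a floxed allele of Slmap recombined by Cre under the CMV promoter. Slmap encodes a tail-anchored membrane protein of the centrosome and of the STRIPAK phosphatase complex. WT and SLMAP3-/- lines alike had been transfected with SV40 large T antigen and passaged until senescence was no longer seen. Each line gave 1 library, so the lines are the replicates, and p-values measure the spread between these lines.

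Cyclin D with Cdk4 or Cdk6, and cyclin E or A with Cdk2, phosphorylate the Rb family, which releases E2F transcription factors and lets a cell enter S phase. INK4 proteins bind Cdk4 and Cdk6 alone, whereas p21 and p27, the products of Cdkn1a and Cdkn1b, bind complexes of cyclin and kinase. Cdkn1a is a classical target of p53, and the Cdkn2a locus, which is switched on as MEFs senesce in culture, also encodes p19Arf, a protein that shields p53 from Mdm2. Large T antigen binds both p53 and the Rb family proteins, and every line was transfected with it, so all values below come from cells given this viral protein, and none from cells without it.

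The libraries held between 49878808 and 63322675 estimated counts, with overlapping ranges in the 2 genotypes, and the lines correlated with each other at r between 0.95 and 0.98 across genes. Slmap stood at 124, 139, 143 and 141 CPM (counts scaled to the size of the library, with the TMM factor) in the WT lines 1 to 4 and at 44.3, 32.7, 36.3 and 39.7 CPM in the SLMAP3-/- lines 1 to 4, as the labels say. The 10 fibroblast markers summed to at least 15716 CPM in every line, against at most 40.5 CPM for the 5 markers of endothelial cells and at most 22.9, 5.18, 2.14 and 1.45 CPM for those of neural, immune, epithelial and muscle cells, with Myod1 at 0 throughout. Y-linked genes were read in 1 line of each genotype, WT replicate 3 and SLMAP3-/- replicate 2, at 211 and 208 CPM, and stood below 0.1 CPM in the other 6. In bulk libraries, a lower level in every cell and fewer cells with the transcript cannot be told apart.

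Cdkn1a was the inhibitor that separated the genotypes. The gene (ENSMUSG00000023067.14) lies on chromosome 17 from 29090976 to 29100727 of GRCm38, on the plus strand, and its longest coding transcript has 3 exons and 2080 bases. Its RNA starts at 2 sites 2790 bases apart. The 250 bases before each, taken from RefSeq (GRCm38.p6), are shown because the p53 site lies in one of them and GC boxes, the letters GGGCGG bound by Sp1, lie in the other. Capitals mark these matches.
Cdkn1a distal start, chr17:29090729-29090978, plus strand: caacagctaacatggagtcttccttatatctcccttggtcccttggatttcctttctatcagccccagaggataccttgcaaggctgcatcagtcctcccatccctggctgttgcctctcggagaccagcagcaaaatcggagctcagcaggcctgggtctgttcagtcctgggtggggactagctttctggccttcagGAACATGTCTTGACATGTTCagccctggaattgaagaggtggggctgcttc
Cdkn1a proximal start, chr17:29093519-29093768, plus strand: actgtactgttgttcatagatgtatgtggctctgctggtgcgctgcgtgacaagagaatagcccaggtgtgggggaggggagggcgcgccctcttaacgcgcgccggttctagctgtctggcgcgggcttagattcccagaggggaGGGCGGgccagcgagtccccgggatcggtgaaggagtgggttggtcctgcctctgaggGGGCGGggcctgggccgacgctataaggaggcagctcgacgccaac
The p53 site, 20 bases made of 2 half-sites with at most 1 mismatch, was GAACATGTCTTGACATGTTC, from 51 to 32 bases before the distal start. Of 32851 windows of the same length before RefSeq starts in the mouse genome, 0.0761% hold such a site on either strand. The 2 GC boxes before the proximal start lie 104 to 99 and 46 to 41 bases upstream, and 32.7% of all windows hold at least one. These are matches of letters and no binding was measured here, and the counts, summed per gene, do not tell the 2 starts apart.

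Cdkn1a stood at 84.8, 97.7, 77.3 and 99.3 CPM in WT lines 1 to 4. In SLMAP3-/- lines 1 to 4 it stood at 48.5, 62.9, 56.9 and 58.7 CPM. The highest SLMAP3-/- line lay below the lowest WT line, so the groups did not overlap. The mean was 89.8 ± 10.5 CPM in WT and 56.7 ± 6.06 CPM in SLMAP3-/- MEFs (SD, n = 4 each), which is 63.2% of the WT level. In edgeR this was a log2 fold change of -0.66, with a 95% interval of -0.92 to -0.40 and a standard error of 0.11. At least 2799 counts of Cdkn1a were read in every library. The gene annotated on the opposite strand, AC167363.2 in GENCODE M21, was taken to be 1700023B13Rik of the count table, which had at most 4 counts. Whether the names mean the same gene was not tested.

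Of the 9 genes, none passed an adjusted p of 0.05 in edgeR's quasi-likelihood test and 1, Cdkn1a, had an unadjusted p under that value, against 0.00647% and 1.81% of all genes tested. The one gene that passed in edgeR was Slmap itself. DESeq2, the tool of the study, called 11 genes at the same threshold, 0.0633% of those it tested, and Cdkn1a was 1 of them. Lower calls in SLMAP3-/- MEFs made up 0.0288% of the genes tested by DESeq2, and its unadjusted p was under 0.05 for 1.63%. All 4 SLMAP3-/- lines below all 4 WT lines was seen in 0.53% of all tested genes, and no overlap in either direction in 1.25%. Since the list was chosen with this difference in view, nothing about the 9 genes is read from these counts. Within the 6 lines without Y-linked reads, 3 of each genotype, Cdkn1a stood at 84.8 to 99.3 CPM in WT and 48.5 to 58.7 CPM in SLMAP3-/- MEFs, with a log2 fold change of -0.78. The 2 lines with Y-linked reads, the lowest WT and the highest SLMAP3-/- line for Cdkn1a, stood at 77.3 and 62.9 CPM, a log2 difference of -0.30 from 1 line each.

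**Figure D1:**
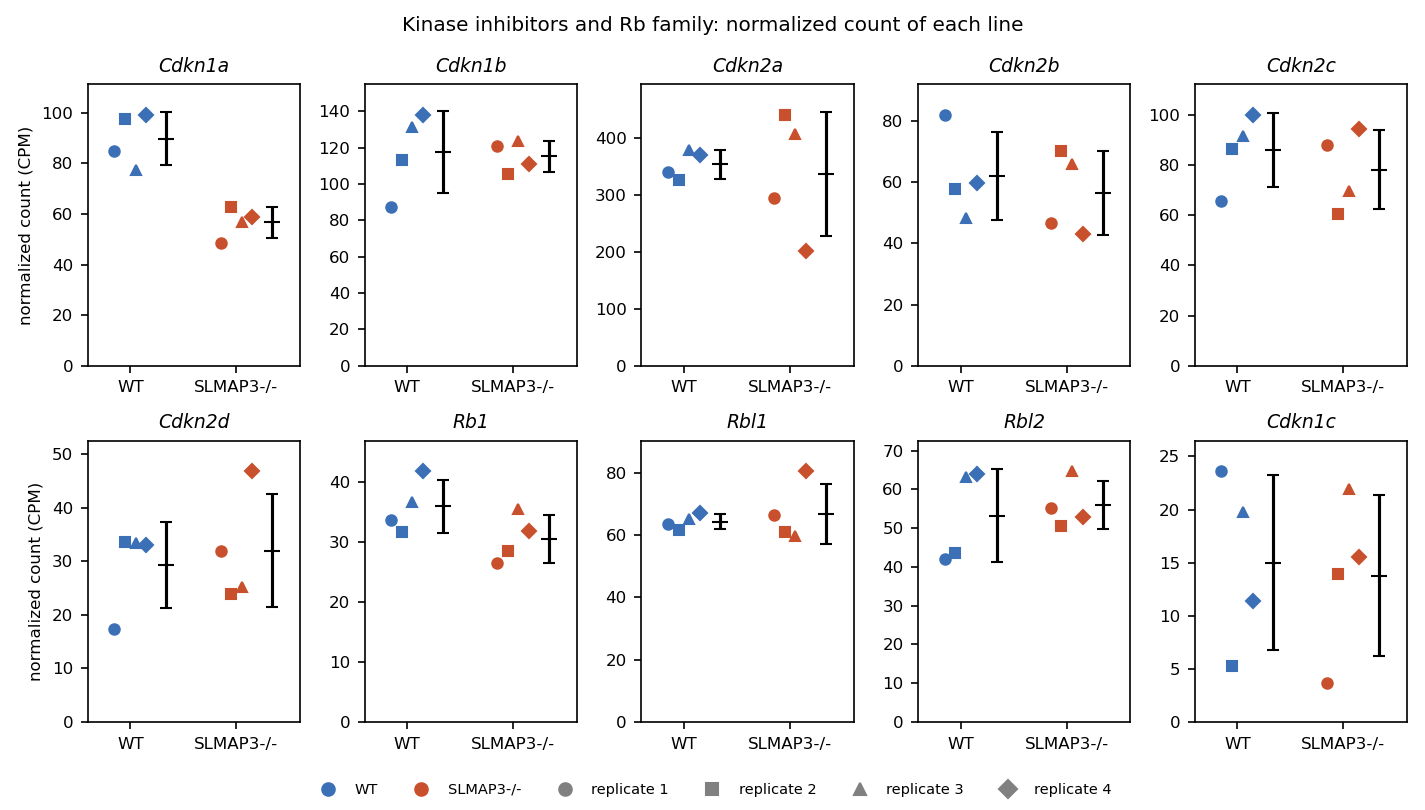
Normalized count (CPM, y axis from 0) of the 9 genes and of Cdkn1c in each of the 4 WT and 4 SLMAP3-/- lines. Points are lines, with the symbol giving the replicate number within a genotype, and bars are the mean ± SD of 4 lines. Cdkn1a is the panel in which the genotypes do not overlap, with WT lines from 77.3 to 99.3 CPM and SLMAP3-/- lines from 48.5 to 62.9 CPM.

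Cdkn1b, which encodes p27, the inhibitor that accumulates in resting cells, lies on chromosome 6 from 134920401 to 134925513 on the plus strand. It stood at 87.4, 113, 131 and 138 CPM in WT lines 1 to 4 and at 121, 106, 124 and 111 CPM in SLMAP3-/- lines 1 to 4. The SLMAP3-/- lines all lay inside the WT range, and the means were 118 ± 22.7 and 115 ± 8.49 CPM (SD, n = 4). In log2 the difference was -0.03, with a 95% interval of -0.36 to 0.30.

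Cdkn1c, the remaining Cip/Kip gene, encodes p57 and is imprinted. It was not among the 9 genes and is given for the family. It ranged more widely than any of the 9, from 5.28 to 23.6 CPM in WT and from 3.70 to 22.0 CPM in SLMAP3-/- lines, with the genotypes overlapping over nearly all of the range.

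Per transcript length, the Cip/Kip family was carried by Cdkn1a and Cdkn1b. Cdkn1a made up 48.6% to 62.95% of the summed CPM per kb of the 3 genes in the WT lines and 41.4% to 49.8% in the SLMAP3-/- lines. Cdkn1b made up 26.5% to 37.8% in WT and 38.2% to 51.3% in SLMAP3-/- lines. The shares of Cdkn1b thus did not overlap between the genotypes, being higher in SLMAP3-/- MEFs, while its own CPM overlapped. The shares contain the Cdkn1a difference and are no separate finding. They also depend on the length used, here the longest coding transcript, which for Cdkn1b has 4552 bases against a median of 2393. With median lengths Cdkn1b stood above Cdkn1a in the mean over the 8 lines. The summed level of the family varied 1.62-fold over the 8 lines.

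Cdkn2a, Cdkn2b and Cdkn2c lie on chromosome 4 and Cdkn2d on chromosome 9. Cdkn2a (89274471 to 89294653) and Cdkn2b (89306299 to 89311039), both on the minus strand, are 11.64 kb apart, and Cdkn2c (109660876 to 109667189) is 20.37 Mb further along. Cdkn2a makes 2 proteins in different reading frames, p16Ink4a, an inhibitor of Cdk4 and Cdk6, and p19Arf, from starts 12427 bases apart. Their transcripts, of 852 and 895 bases, share 575 bases, so the counts, summed per gene, hold both products. The windows before the 2 starts are shown because the 2 products are transcribed from separate promoters, with E2F and GC box matches in capitals.
Cdkn2a p19Arf start, chr4:89294620-89294869, minus strand: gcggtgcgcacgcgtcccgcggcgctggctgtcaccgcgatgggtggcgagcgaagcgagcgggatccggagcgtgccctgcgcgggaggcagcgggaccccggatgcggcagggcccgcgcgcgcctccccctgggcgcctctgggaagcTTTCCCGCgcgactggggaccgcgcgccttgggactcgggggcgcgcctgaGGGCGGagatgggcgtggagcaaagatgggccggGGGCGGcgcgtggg
Cdkn2a p16Ink4a start, chr4:89282193-89282442, minus strand: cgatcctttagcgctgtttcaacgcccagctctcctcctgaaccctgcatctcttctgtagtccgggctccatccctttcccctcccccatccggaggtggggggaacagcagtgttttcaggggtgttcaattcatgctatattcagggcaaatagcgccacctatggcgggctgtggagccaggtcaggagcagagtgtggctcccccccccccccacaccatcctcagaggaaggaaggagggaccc
The first window holds TTTCCCGC, one of 4 E2F octamers searched on both strands (TTTCCCGC, TTTCGCGC, TTTGCCGC and TTTGGCGC), from 99 to 92 bases before the start, and 2 GC boxes. The window before the p16Ink4a start holds none of the motifs searched, among them the TATA box, TATAAA. An E2F octamer is found in 1.86% of all windows. Of the 11 windows RefSeq gave for 8 of the 9 genes, 2 held one, the p19Arf window and that of Rbl1, and 6 held a GC box, 1 a p53 site and none TATAAA, which 12.4% of all windows hold.

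Cdkn2a was the most abundant of the 9 genes, and its level hardly differed between genotypes in the mean but spread widely among SLMAP3-/- lines. The WT lines 1 to 4 stood at 339, 326, 378 and 371 CPM. The SLMAP3-/- lines 1 to 4 stood at 295, 441, 406 and 202 CPM, with 2 lines above and 2 lines below the whole WT range. The means were 354 ± 24.9 and 336 ± 109 CPM (SD, n = 4), and the log2 fold change was -0.07 with an interval of -0.58 to 0.44. Without SLMAP3-/- replicate 4, the line with the least Cdkn2a, the log2 fold change was 0.11. Whether the SDs themselves differ was not tested.

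Cdkn2b, whose product p15Ink4b is known as a target of TGF-beta signalling, stood at 82.1, 57.9, 48.5 and 59.7 CPM in WT lines 1 to 4. It stood at 46.7, 70.4, 66.1 and 43.0 CPM in SLMAP3-/- lines 1 to 4. The genotypes overlapped, with WT replicate 1 the highest of all 8 lines. Between genotypes the log2 fold change was -0.14 (interval -0.61 to 0.34), and 0.03 without WT replicate 1.

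Cdkn2c, which encodes p18Ink4c, stood at 65.7, 86.5, 91.6 and 100 CPM in WT lines 1 to 4 and at 87.9, 60.6, 69.9 and 94.6 CPM in SLMAP3-/- lines 1 to 4. The ranges overlapped for most of their length, with a log2 fold change of -0.14 (interval -0.53 to 0.26).

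Cdkn2d encodes p19Ink4d, which is distinct from p19Arf, and lies on chromosome 9 from 21288410 to 21291407. It stood at 17.3, 33.6, 33.5 and 33.0 CPM in WT lines 1 to 4 and at 32.0, 23.9, 25.2 and 46.9 CPM in SLMAP3-/- lines 1 to 4. Of the WT lines, 3 were within 1 CPM of each other and replicate 1 was far lower. It had the widest interval of the 9 genes, with a log2 fold change of 0.12 between -0.51 and 0.75, and a 2.71-fold range over all lines. Without SLMAP3-/- replicate 4, the highest line, the estimate was -0.12.

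Among the INK4 genes, Cdkn2a made up 68.9% to 84.3% of the summed CPM per kb in the 8 lines, with a median of 79.5%. Cdkn2b followed at 6.73% to 12.4%, Cdkn2c at 4.19% to 11.7% and Cdkn2d at 2.55% to 10.0%. These shares use the longest coding transcript, and with median lengths Cdkn2c stood above Cdkn2b in the mean over the 8 lines. SLMAP3-/- replicate 4 had the lowest share of Cdkn2a and the highest of Cdkn2c and Cdkn2d, and SLMAP3-/- replicate 2 had the highest share of Cdkn2a and the lowest of Cdkn2c. The summed level of the family varied 1.78-fold between these 2 lines, the lowest and the highest.

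The neighbours of the locus were Mtap, the methylthioadenosine phosphorylase gene, 93.39 kb from Cdkn2a, and Dmrta1, 368.4 kb from Cdkn2b. Mtap stood at 225, 153, 104 and 111 CPM in WT and at 149, 176, 131 and 124 CPM in SLMAP3-/- lines 1 to 4, so the genotypes overlapped. Dmrta1 had 2 to 30 counts per library, too few to compare.

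**Figure D2:**
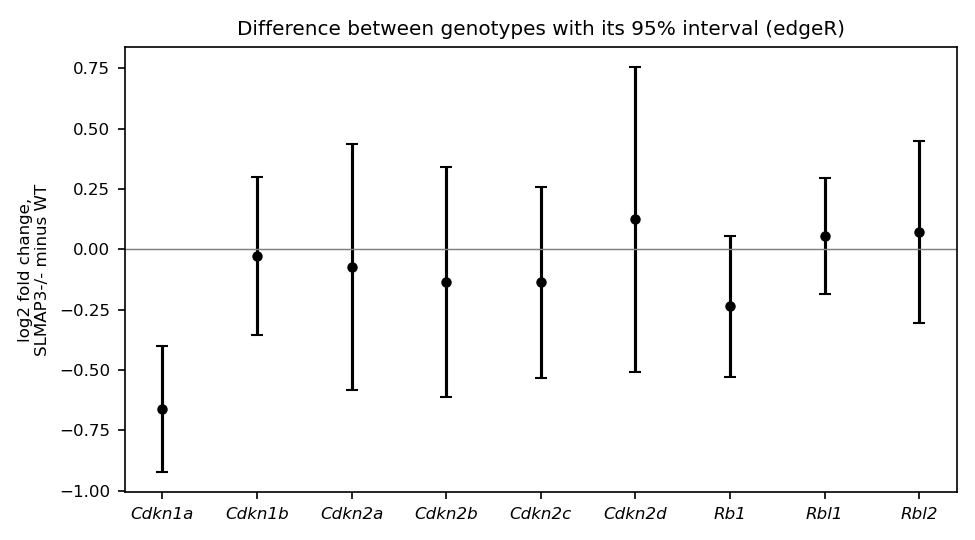
Log2 fold change of SLMAP3-/- against WT MEFs (y axis) for the 9 genes (x axis), with points the edgeR estimate and bars its 95% interval from 4 lines per genotype. The estimate of Cdkn1a is -0.66 and those of the other 8 genes lie between -0.24 and 0.12. The intervals give the uncertainty of each estimate and are not used as a test, since the genes were chosen with these values known.

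Summed per kb, the Rb family varied least of the 3 families, by 1.27-fold over the 8 lines. Rb1, the retinoblastoma gene, occupies positions 73183673 to 73325822 of chromosome 14 (minus strand), on the same chromosome as Slmap and 46.65 Mb from it. It stood at 33.7, 31.7, 36.7 and 41.9 CPM in WT lines 1 to 4 and at 26.4, 28.5, 35.5 and 31.8 CPM in SLMAP3-/- lines 1 to 4. Of the SLMAP3-/- lines, replicates 1 and 2 lay below every WT line, and replicates 3 and 4 lay within the WT range. The log2 fold change was -0.24, the second in size among the 9 genes, with an interval of -0.53 to 0.06. Rcbtb2 and Lpar6 are annotated on the opposite strand across parts of Rb1, at 35.2 to 52.1 CPM and 11.8 to 16.5 CPM. The library kit keeps strand, but the strand setting of the quantification was not given in the sources used here, so reads of the overlap are uncertain. The same holds for Rbl2, where Aktip lies on the opposite strand at 22.2 to 26.1 CPM.

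Rbl1 encodes p107, a partner of the repressive E2F proteins in cycling cells, and lies on chromosome 2 from 157145893 to 157204534 on the minus strand. Its WT lines 1 to 4 stood at 63.5, 61.5, 65.3 and 67.2 CPM and its SLMAP3-/- lines 1 to 4 at 66.4, 60.9, 59.7 and 80.6 CPM. The WT lines lay inside the SLMAP3-/- range, whose top was SLMAP3-/- replicate 4. Its log2 fold change was 0.06 (interval -0.18 to 0.30).

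Rbl2 encodes p130, the Rb family member known for its role in resting cells, and lies on chromosome 8 from 91070057 to 91123844 on the plus strand. It stood at 42.0, 43.6, 63.2 and 64.0 CPM in WT lines 1 to 4, which formed a low and a high pair, and at 55.3, 50.6, 64.8 and 52.9 CPM in SLMAP3-/- lines 1 to 4. Its log2 fold change was 0.07 (interval -0.31 to 0.45). Per kb, Rb1 made up 18.6% to 25.1% of the family, Rbl1 37.1% to 48.5% and Rbl2 29.6% to 39.8%.

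The choice of genes did not use levels between genes, but the level of Cdkn1a over all lines contains its genotype difference. Levels were compared as CPM per kb of the longest coding transcript, over all 8 lines. Cdkn2a led at 385 ± 82.3 CPM per kb, followed by Cdkn2b at 42.7 ± 9.56, Cdkn1a at 35.2 ± 9.31, Cdkn2c at 33.2 ± 5.94, Cdkn1b at 25.6 ± 3.498 and Cdkn2d at 21.5 ± 6.17 CPM per kb (SD, n = 8). The Rb family stood lowest, with Rbl1 at 13.5 ± 1.36, Rbl2 at 11.1 ± 1.82 and Rb1 at 7.15 ± 1.04 CPM per kb. The order of the inhibitors thus ran from INK4 to Cip/Kip and back, and did not sort by family. The place of Cdkn1a changed with genotype. In WT lines its mean was 43.2 CPM per kb, between Cdkn2b at 44.6 and Cdkn2c at 34.8. In SLMAP3-/- lines its mean was 27.3 CPM per kb, below Cdkn2c at 31.7.

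Of the 8 pairs of neighbours in this order, 4 differed beyond their spread in a two-sided exact permutation test by sign flips over the lines, adjusted over the 8 pairs. Cdkn2a exceeded Cdkn2b by 8.998-fold, in 8 of 8 lines (p = 0.00781, the smallest that 8 lines allow, adjusted p = 0.0208, exact). Cdkn2c exceeded Cdkn1b by 1.29-fold and Rbl2 exceeded Rb1 by 1.54-fold, each in 8 of 8 lines with the same exact adjusted p. Cdkn2d exceeded Rbl1 by 1.54-fold in 7 of 8 lines (exact adjusted p = 0.0313). The neighbours that did not pass were Cdkn2b and Cdkn1a, Cdkn1a and Cdkn2c, Cdkn1b and Cdkn2d, and Rbl1 and Rbl2. With the median in place of the longest transcript, Cdkn2a still led and the Rb family still came last. But Cdkn1b moved to the second place, above Cdkn2c, and Cdkn2b to the fifth. The difference of Cdkn2c over Cdkn1b was thus reversed, so the order between these inhibitors depends on the transcript length used. The p-values measure the spread between lines and not this choice of length. They also do not account for the sorting on the same values that set the pairs. The pairs with Cdkn1a contain its genotype difference.

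**Figure D3:**
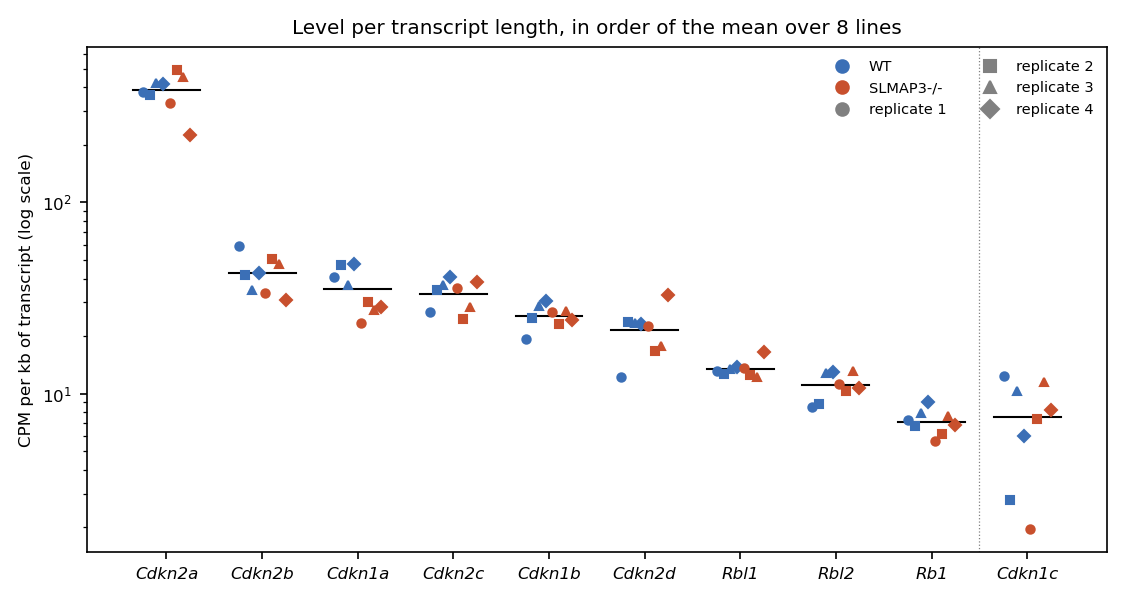
Level of the 9 genes and, right of the dotted line, of Cdkn1c (x axis) in CPM per kb of the longest coding transcript (y axis, log scale). Points are the 8 lines and horizontal lines their mean. Cdkn2a stands at 226 to 493 CPM per kb in every line, above all other genes shown.

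The 9 genes were then compared with each other from line to line, which asks whether they rise and fall together. Over 36 pairs, none passed after adjustment in a two-sided exact permutation test of Pearson's r over the 8 lines, and 6 had an unadjusted p under 0.05. The pair with the largest r in size was Cdkn2b and Cdkn2d, with r = -0.91 (exact permutation p = 0.00196, adjusted p = 0.0674) and rho = -0.83 (exact p = 0.0154, adjusted p = 0.185). Leaving out WT replicate 1 and SLMAP3-/- replicate 4, the lines at the ends of Cdkn2b, r was -0.77. Cdkn2c and Cdkn2d varied in the same direction, with r = 0.83 (exact permutation p = 0.00625, adjusted p = 0.0750), rho = 0.74 (exact p = 0.0458, adjusted p = 0.332) and r = 0.71 without 2 lines. Cdkn1b and Rbl2, the p27 and p130 genes, had r = 0.86 (exact permutation p = 0.00375, adjusted p = 0.0674), rho = 0.86 (exact p = 0.0107, adjusted p = 0.185) and r = 0.75 without 2 lines.

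Cdkn2a and Rbl1 had r = -0.88 (exact permutation p = 0.0159, adjusted p = 0.143), which fell to -0.35 without SLMAP3-/- replicates 2 and 4 and so rests on those lines. Taken as deviations from the mean of their genotype, the r was -0.91 for Cdkn2b with Cdkn2c and with Cdkn2d, 0.92 for Cdkn2c with Cdkn2d and 0.88 for Cdkn1b with Rbl2. With lines permuted within genotype, which keeps the deviations exchangeable, no pair passed after adjustment. The lowest was Cdkn1b with Rbl2 (exact permutation p = 0.00174, the smallest that this permutation allows, adjusted p = 0.0625). A single pair could thus not pass alone, and nothing is concluded from its not passing. On log2 CPM itself, leaving out WT replicate 2 made 1 pair, Cdkn1b with Rbl2, pass, and leaving out any other line made none pass. Cdkn2a and Cdkn2b, the neighbours on chromosome 4, had r = 0.65 (exact permutation p = 0.0733, adjusted p = 0.293), which was 0.28 without SLMAP3-/- replicates 2 and 4.

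**Figure D4:**
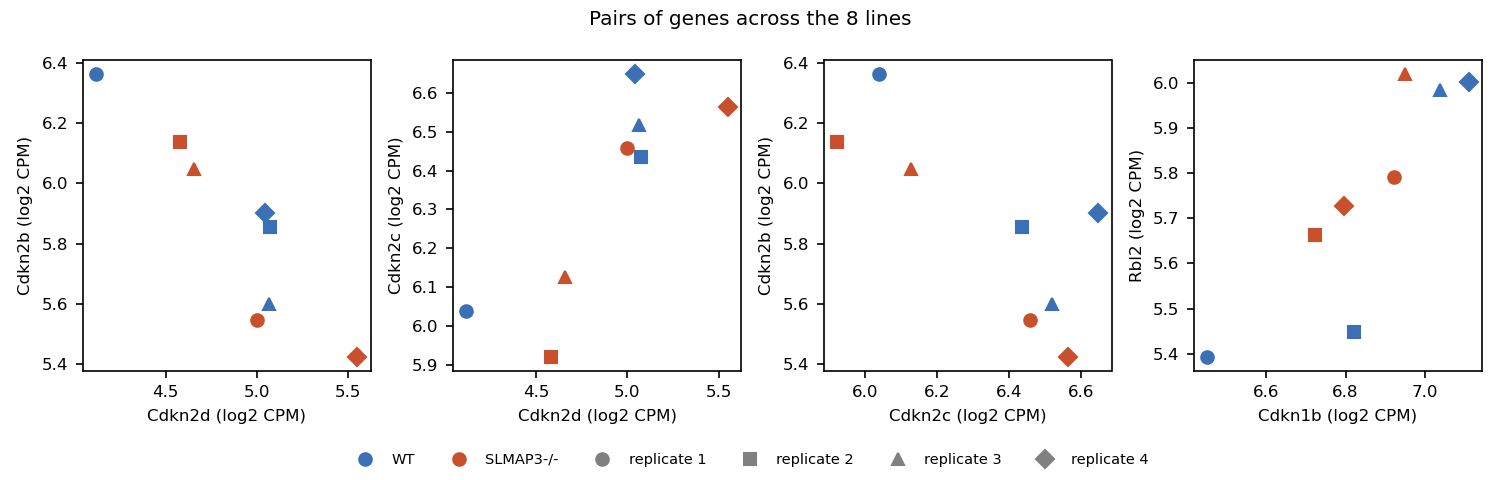
Log2 CPM of 4 pairs of genes, one point per line, coloured by genotype with the symbol giving the replicate number. Cdkn2b lies lower where Cdkn2d (r = -0.91) and Cdkn2c (r = -0.78) lie higher, and Rbl2 lies higher where Cdkn1b does (r = 0.86). Lines of both genotypes lie along each trend. Over all 8 lines no pair passed after adjustment. The 4 pairs shown passed only on deviations permuted over all lines, which is not exact, or, for Cdkn1b with Rbl2, also without WT replicate 2.

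The genes most like Cdkn1a by the r of deviations from genotype means over the 8 lines, out of 15460 compared, were Qsox1 (r = 0.99), Gm5844 (r = 0.98), Rabgap1l (r = 0.97), Smurf2 (r = 0.96) and Mgll (r = 0.95). For Cdkn2a, Cln3, Rdh11, Capg and Tor4a were among the most like, each at r = 0.98. Genotype differences do not enter this r, and the log2 fold changes of the genes most like Cdkn1a ran from -0.96 for Mgll to 0.26 for Qsox1. Gm5844 stood low, at a mean of 0.39 CPM in WT and 0.36 CPM in SLMAP3-/- lines. Among so many genes high values arise readily with 8 lines, and these are a description.

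The rest of the circuit was read from lists of genes with known roles. No gene of these lists passed an adjusted p of 0.05 in edgeR or DESeq2. Of 18 genes of the p53 circuit other than Cdkn1a, 14 had a log2 fold change below 0 and 4 above, with a median of -0.16 against -0.0014 for all tested genes, and 3 had an unadjusted p under 0.05, where 1.81% of all tested genes did. The median was -0.07 without SLMAP3-/- replicate 4. Ccng1, a p53 target that encodes cyclin G1, stood at 141 to 196 CPM in WT and 122 to 147 CPM in SLMAP3-/- lines, a log2 fold change of -0.33. Tnfrsf10b, a death receptor gene, stood at 78.7 to 90.2 CPM in WT and at 63.2 to 77.9 CPM in SLMAP3-/- lines, which did not overlap, with a log2 fold change of -0.28. The third, Gdf15, a secreted stress cytokine, lay in the other direction at 0.94, from a level of 0.45 to 1.78 CPM.

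Trp53 itself, the p53 gene, stood at 242, 230, 192 and 190 CPM in WT and at 233, 220, 212 and 197 CPM in SLMAP3-/- lines 1 to 4, a log2 fold change of 0.01. Mdm2, the ubiquitin ligase of p53 and also its target, stood at 112, 99.2, 91.9 and 88.3 CPM in WT and at 84.3, 90.4, 75.0 and 90.1 CPM in SLMAP3-/- lines 1 to 4. Its log2 fold change was -0.20, and the 2 genotypes overlapped. Of 14 other regulators of Cdkn1a, transcription factors and the histone deacetylase Hdac1, 9 lay below 0 and 5 above, with a median of -0.04. Klf4 had the largest difference, -0.53, with overlapping ranges of 18.2 to 33.5 CPM in WT and 10.0 to 28.4 CPM in SLMAP3-/- lines, and Hdac1 had the highest level per kb. Without SLMAP3-/- replicate 4 the difference of Klf4 was -0.32.

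The 9 cyclins and kinases that the inhibitors bind had 7 log2 fold changes below 0 and 2 above, with a median of -0.08. Cdk4, the partner of INK4 proteins, had the highest level of them at 230 CPM per kb and stood at 435 to 532 CPM in WT and 411 to 518 CPM in SLMAP3-/- lines. Cdk6 was more variable, at 7.91 to 71.2 CPM in WT and 12.8 to 44.0 CPM in SLMAP3-/- lines, and its log2 fold change ran from -0.98 without SLMAP3-/- replicate 2 to 0.75 without WT replicate 1. Ccnd1, which encodes cyclin D1, had the largest difference, -0.65, with a standard error of 0.54. Its lines ran from 104 to 207 CPM in WT and stood at 153, 135, 65.4 and 20.96 CPM in SLMAP3-/- lines 1 to 4, and without SLMAP3-/- replicate 4 the log2 fold change was -0.31. Cdk2, the kinase bound by p21 and p27, stood at 88.2 to 101 CPM in WT and 82.2 to 96.7 CPM in SLMAP3-/- lines.

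Downstream of the Rb family, 5 of 10 E2F and DP factors lay below 0 and 5 above, with a median of 0.01. E2f1, an activator of S phase genes, had a log2 fold change of -0.08, E2f2 had the largest difference at -0.25, and Tfdp1, a partner of E2F proteins, had the highest level per kb and a log2 fold change of -0.03. The MuvB core forms the repressive DREAM complex with p107 and p130, and was listed with its other partners Mybl2 and Foxm1. Of these 7 genes, 5 lay above 0, with a median of 0.04. The largest difference was that of Lin52 at -0.31 and the highest level that of Rbbp4. The 14 markers of dividing cells had 10 values above 0 and 4 below, with a median of 0.12. Top2a, the highest of them per kb, was 0.19 higher in log2 and Plk1, with the largest difference, 0.28 higher, both with overlapping ranges. SLMAP3-/- replicate 4 was the highest line for both, at 853 and 200 CPM, and without it the log2 fold changes were 0.04 and 0.18 and the median of the 14 markers 0.03. The 14 summed to 3237 to 3567 CPM in WT and to 3418 to 4103 CPM in SLMAP3-/- lines, and their part in the Cdkn1a difference was not tested.

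Ubiquitin ligase parts and partners, most of them known to direct breakdown of p21 or p27, are given because protein levels were not measured here. Of 11, 6 lay above 0 and 5 below, with a median of 0.0021, from Fbxw7 at -0.07 to Cdc20 at 0.24, and Ddb1 had the highest level. The 11 chromatin and transcription factors known to act on the Cdkn2a locus had a median of 0.03, with 6 above 0 and 5 below. Among them Bmi1, a Polycomb protein that represses the locus, had the largest difference, -0.18, and Jund the highest level, with a log2 fold change of 0.16.

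**Figure D5:**
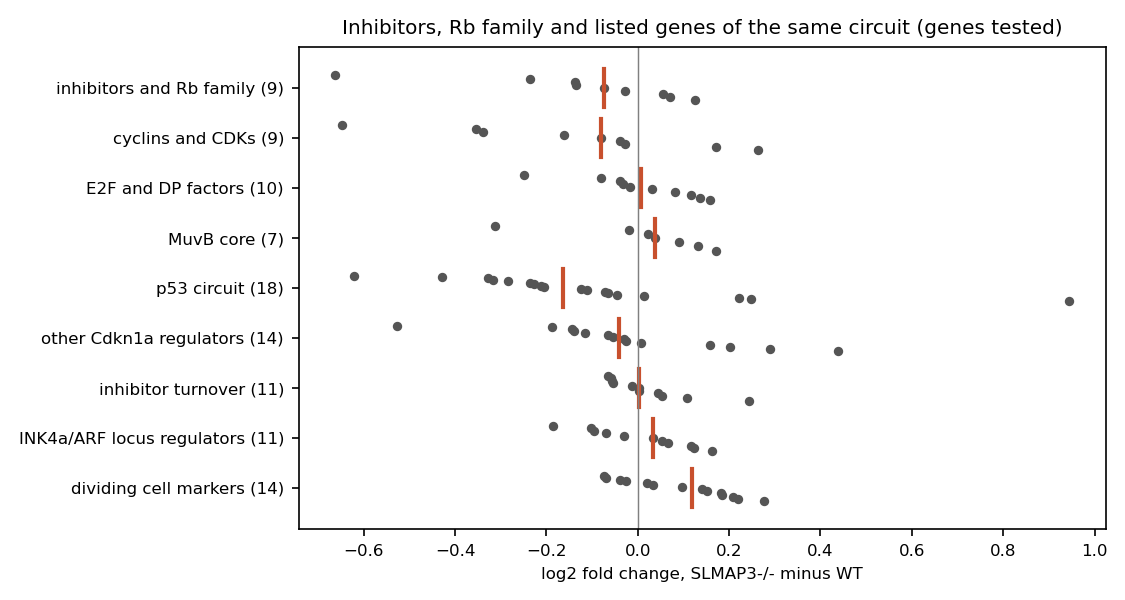
Log2 fold change of SLMAP3-/- against WT MEFs (x axis) for the 9 genes and the lists of the circuit (y axis, number of genes tested in brackets). Points are genes and red bars the median of the list, which runs from -0.16 for the p53 circuit to 0.12 for the dividing cell markers.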

How the data were processed

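RNA-seq libraries of 8 immortalized MEF lines were made with the Illumina Stranded mRNA kit. The authors quantified reads with Salmon on GRCm38 (GENCODE M25) and deposited estimated counts per gene, scaled by transcript length; the versions of Salmon and DESeq2 were not given in the sources used here. The deposited table of the authors' own fold changes was not used. The genes and lists were chosen with earlier results of these data known.

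Estimated counts were rounded to whole numbers. Genes passed filterByExpr (minimum count 10) and were fitted with edgeR 4.0.16 (TMM, quasi-likelihood test, Benjamini-Hochberg adjustment, threshold 0.05, all 8 lines, no covariate). log2 CPM used a prior count of 2, and levels per kb a pseudocount of 0.1 and transcript lengths of GENCODE M21, whose gene identifiers for the 9 genes equal those in the table. DESeq2 1.42.0 and limma 3.58.1 were alternatives. Intervals are 95%. The p53 site was defined after seeing the sequence.

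In simulated data with 200 changed genes and fold sizes of 1.5, 2 and 4, edgeR recovered 0%, 27% and 71.5% of them (0, 8 and 10 false calls). DESeq2 recovered 19%, 57% and 81.5% (49, 57 and 71 false calls). The simulated counts were negative binomial, with the dispersion of each gene as edgeR estimated it from these lines. On the real lines DESeq2 called 11 genes in all, fewer than its false calls at any simulated fold size. Its simulated rates therefore do not describe its calls on the real lines. How far the rates hold for the call of Cdkn1a was not tested. Listed genes were named by a fixed rule: Slmap and 10 chosen genes always, in each list of the circuit, cell type markers left out, the highest level per kb, the largest fold change and any unadjusted p under 0.05 in edgeR or adjusted p under 0.05 in either tool, and the 5 genes most like Cdkn1a and Cdkn2a, of which 1 is not reported here. The labels give 1 library per line; whether lines share a litter was not stated, and WT replicate 4 and SLMAP3-/- replicate 3 share a number in their column names whose meaning is not given.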

Additional observations from a re-analysis of the deposited data

Results flagged for a closer look

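Cdkn2d in WT replicate 1 stood apart from its group. It was at 17.3 CPM, where the other 3 WT lines stood at 33.0 to 33.6 CPM, so the gap to the nearest line was 0.96 of the whole range of the group, above Dixon's 95% critical value for 4 samples. In all, 20 groups of 4 lines were examined and 1 stood out, as many as chance gives. The same line had the lowest Cdkn1b, Cdkn2c and Rbl2 and the highest Cdkn2b of the WT lines.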

How the results depend on the processing

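DESeq2 called 11 genes, of which 1 of the 9, and edgeR 1 gene; the cause was not tested. Replicate numbers did not pair the lines: same-numbered lines deviated with r of -0.16, 0.06, 0.19 and -0.003, and not every line correlated best with its own number. With a replicate block, edgeR called 0 genes, against 294 at an unadjusted p under 0.05. Correlated pairs numbered 4 on deviations from genotype means permuted over all 8 lines, for which that permutation is not exact. They numbered 0 when permuted within genotype (added after seeing the data), where a single pair could not pass alone. On log2 CPM they numbered 0, and 0 to 1 when leaving out each line, the 1 being Cdkn1b with Rbl2 without WT replicate 2. Over 17 alternatives, 1 of them (the 6 lines without Y-linked reads) added after seeing the data, the log2 fold change of Cdkn1a lay between -0.78 and -0.59. Those of the other 8 genes ran from -0.36 at the lowest to 0.31 at the highest. Cdkn1b, Cdkn2a, Cdkn2b, Cdkn2d, Rbl1 and Rbl2 crossed 0 under at least 1 alternative. Neighbours in the level order that differed numbered 3 to 4. Each of the 9 genes had at least 1073 counts in each library, and other depths were not tried.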
